A study of Homo sapiens with 12 samples.

Results

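Clone E1 was compared with clone E6 over 12250 genes on 4 of the 12 expression bead arrays of the series, 2 arrays per clone. Both clones grew from single sorted cells of PC9, a human lung cancer line that depends on a mutant, overactive form of the receptor kinase EGFR, and the labels call both tolerant of gefitinib, a small molecule that blocks the EGFR kinase. The other arrays hold the tolerant clones D6, E2 and E3 and the sensitive clone B7. The treatment text, 14 days with gefitinib at 0.4 to 2 µM, is the same on every sample, B7 included, and the labels do not say whether the cells were still in the drug when RNA was taken. Each side of the comparison is 1 clone, and no label says that its 2 arrays came from separate cultures. The p-values below therefore measure only the spread between 2 arrays of a clone, which may be technical, and not the spread between clones of a kind.

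The pair was picked by its EGFR signal, the highest of the 5 tolerant clones in E1 and the lowest in E6, so EGFR is described here with no test. Values are log2 normalised intensities from the gene's brightest probe, and a difference is E1 minus E6. EGFR (probe ILMN_1798975, chromosome 7) stood at 11.15 and 11.22 on the E1 arrays, against 8.61 and 8.64 on the E6 arrays. The difference was 2.56, or 5.91-fold. The mean was 10.14 for D6, 9.50 for E2 and 8.88 for E3, all between the pair, and the sensitive clone B7 averaged 10.42. The 2 dimmer EGFR probes kept the direction with smaller differences of 0.77 and 0.28, and the dimmest was under the detection limit on both E6 arrays.

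EGFR passes growth factor signals on through adaptors to the RAS-ERK and PI3K pathways. ERK activity turns on immediate early transcription factors and also the feedback inhibitors that damp it, among them the dual specificity phosphatases, the Sprouty and SPRED proteins and ERRFI1. Clones of a drug-treated cancer line can differ in many other programmes, such as the response to low oxygen, the response to metal ions, the cell cycle and antigen presentation, and each has well known target genes that an array can read.

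The 2 arrays of a clone resembled each other closely. They correlated at 0.9955 in E1 and 0.995 in E6 (Pearson's r over genes, not independent of one another), and the root mean square SD between them was 0.139 log2 units in E1 and 0.148 in E6. E1 and E6 differed by a root mean square of 0.475, inside the range of 0.39 to 0.651 over the 10 pairs of tolerant clones. Scanner signal had its 75th percentile at 94 and 95 intensity units on the E1 arrays, against 103.2 and 92.7 on the E6 arrays. Each E1 array detected 19914 or 19691 probes, against 19987 or 19581 on the E6 arrays. All 6 epithelial markers were detected in both clones, with EPCAM at 13.58 and 13.51 in E1, against 13.20 and 13.05 in E6. Of the listed markers of other cell types, PTPRC, CD3E, CD3D, NKG7, COL1A2, COL3A1, LUM, PDGFRA, PDGFRB, THY1, VWF, KDR, TEK and CLDN5 passed the detection filter in none of the 6 clones. Other members of the same lists passed it, namely MS4A1, CD14, CD68, LYZ, FCGR3A, ITGAM, COL1A1, DCN, PECAM1 and CDH5. The kept members of those lists were 6 of 11 for leukocytes, 2 of 8 for fibroblasts and 2 of 6 for endothelium, and their summed linear intensity was higher in E1. It was 3568 to 3778 units in E1 against 2322 to 2367 in E6 for leukocyte markers, 335 to 337 against 175 to 208 for fibroblast markers, and 456 to 485 against 354 to 362 for endothelial markers. The sum of the epithelial markers was also higher in E1, at 57250 to 57960 units against 47060 to 48900 in E6. CD68 was the brightest leukocyte member, with a mean of 11.54 in E1 and 10.87 in E6. CD14 differed by 1.28, CD68 by 0.68, COL1A1 by 0.99 and CDH5 by 1.303, and PECAM1 was lower in E1 by 0.28 on the log2 scale. MS4A1, LYZ, FCGR3A, ITGAM and DCN did not pass the test described below. Probes for structural RNAs ran the other way. The 28S ribosomal RNA gene RNA28SN5 stood at 12.95 and 13.06 in E1 against 14.34 and 14.45 in E6, and 11 of 13 small nuclear RNAs were lower in E1. The part of these marker and structural RNA differences in the results below was not tested.

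A gene was called when its adjusted p was under 0.05 (limma, all 12 arrays in 1 fit, Benjamini-Hochberg). Leaving EGFR out, 2522 of 12249 genes were higher in E1 (20.6%) and 2409 were lower (19.7%), 40.3% in all. The median difference over all genes was -0.0058. Most calls were small. At least 2-fold differences were called for 350 genes higher in E1 (2.86%) and 186 lower (1.52%), or 4.38% in all, and at least 4-fold differences for 42 higher and 9 lower. These are fitted differences, and 32 of the 350 and 18 of the 186 had an undetected clone and no bound of 2-fold. Of the called genes, 222 were under the detection limit on both E6 arrays alone, 146 on both E1 arrays alone, and 42 on all 4 arrays, for which no fold is given.

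**Figure D1:**
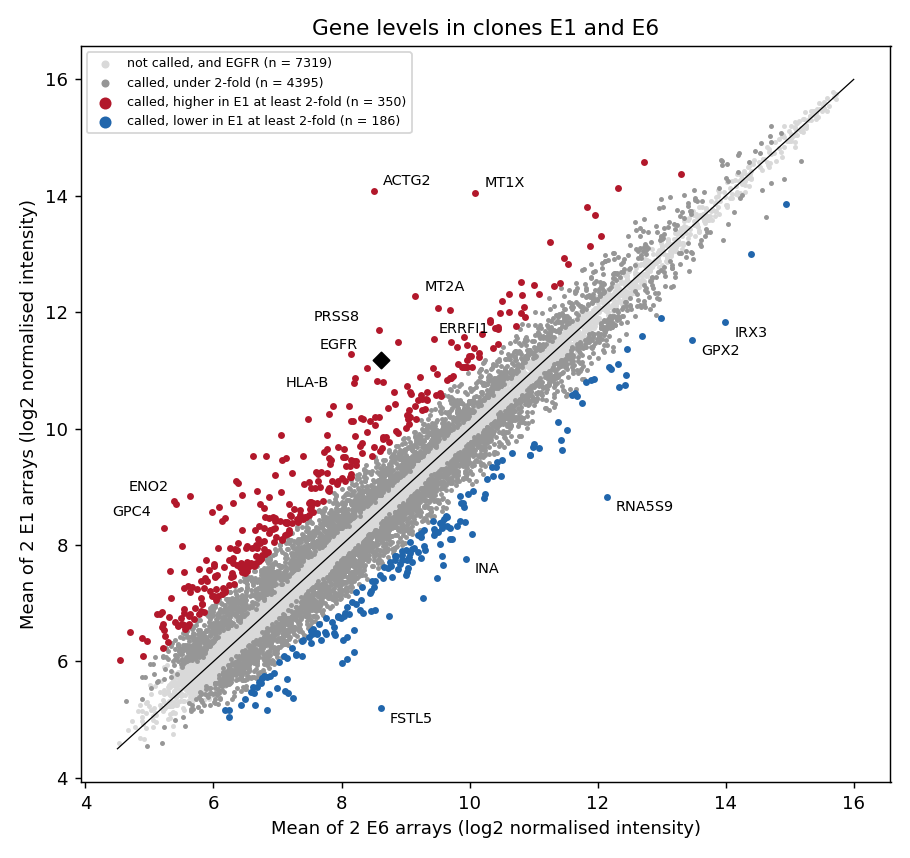
Mean log2 normalised intensity of each of 12250 genes in E1 (vertical axis, 2 arrays) against E6 (horizontal axis, 2 arrays), with the line of equal levels. The 350 genes called at least 2-fold higher in E1 are red, the 186 called at least 2-fold lower are blue, and EGFR, which chose the pair and was not tested, is the black diamond.

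The gene furthest above the line was ACTG2, the gamma actin of enteric smooth muscle. It stood at 14.11 and 14.07 in E1, against 8.42 and 8.60 in E6, a difference of 5.58 ± 0.09 (SE, n = 2 arrays each, adjusted p = 1.22e-10) or 47.9-fold. The other tolerant clones lay between these at 10.74 to 11.14, and B7 was lowest at 7.40. The metal-binding protein MT1X was 15.6-fold higher in E1 and is described with its family below. PRSS8, the epithelial membrane protease prostasin, stood at 11.62 and 11.75 in E1, against 8.34 and 8.82 in E6, a difference of 3.10 ± 0.16 (adjusted p = 4.13e-07). ANG, the secreted ribonuclease angiogenin, had 9.53 and 9.51 in E1, against 6.68 and 6.56 in E6. In all 3 the groups lay far apart compared with the 2 arrays of a clone. Others at this end were the calpain CAPN13 (2.84), the doublecortin-like kinase DCLK1 (2.76), the membrane adaptor PAG1 (2.69) and the matrix protease MMP7 (2.53).

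Several genes were bright in E1 and under the detection limit on both E6 arrays, so only a lower bound of the fold can be given. GPC4, a cell surface heparan sulfate proteoglycan, stood at 8.72 and 8.79 in E1, against 5.34 and 5.41 in E6, at least 6.84-fold higher (adjusted p = 5.05e-09). SCG5, a chaperone of prohormone convertase, had 8.78 and 8.62 in E1, against 5.54 and 5.29 in E6, at least 6.59-fold higher. Its level in E1 was not the highest of the series, since B7 stood at 9.80. FABP6, a bile acid binding protein, was at least 4.99-fold higher in E1, and the kinase PNCK at least 4.02-fold.

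In the other direction, FSTL5, a follistatin-like secreted protein, was detected on both E6 arrays and on neither E1 array. It had 5.40 and 4.998 in E1, against 8.70 and 8.53 in E6, at least 6.2-fold lower in E1 (adjusted p = 9.47e-06). Its mean was 4.63 to 5.33 in the other 4 clones. RNA5S9, a 5S ribosomal RNA gene, stood at 8.88 and 8.78 in E1, against 12.32 and 11.97 in E6. IRX3, a homeobox transcription factor, had 11.87 and 11.78 in E1, against 13.99 and 14.00 in E6, a difference of -2.17 ± 0.07 (SE, n = 2 arrays each, adjusted p = 2.98e-08). E1 was the lowest and E6 the highest of the 6 clones for IRX3. The neuronal intermediate filament INA differed by -2.18, the chemokine receptor-like CCRL2 by -2.18, the GABA receptor subunit GABBR2 by -2.05 and the LIM domain protein CSRP1 by -2.05. PPP2R1B, a scaffold subunit of phosphatase 2A, differed by -1.85 and the surface antigen PSCA by -1.82. Undetected on both E1 arrays were the ligand WNT10A (at least 2.41-fold lower), the epidermal transcription factor GRHL3 (at least 2.27-fold), the inflammasome adaptor PYCARD (at least 2.21-fold), the mitochondrial GTPase MTG1 (at least 2.02-fold) and the centrosomal CEP43 (at least 1.95-fold).

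**Figure D2:**
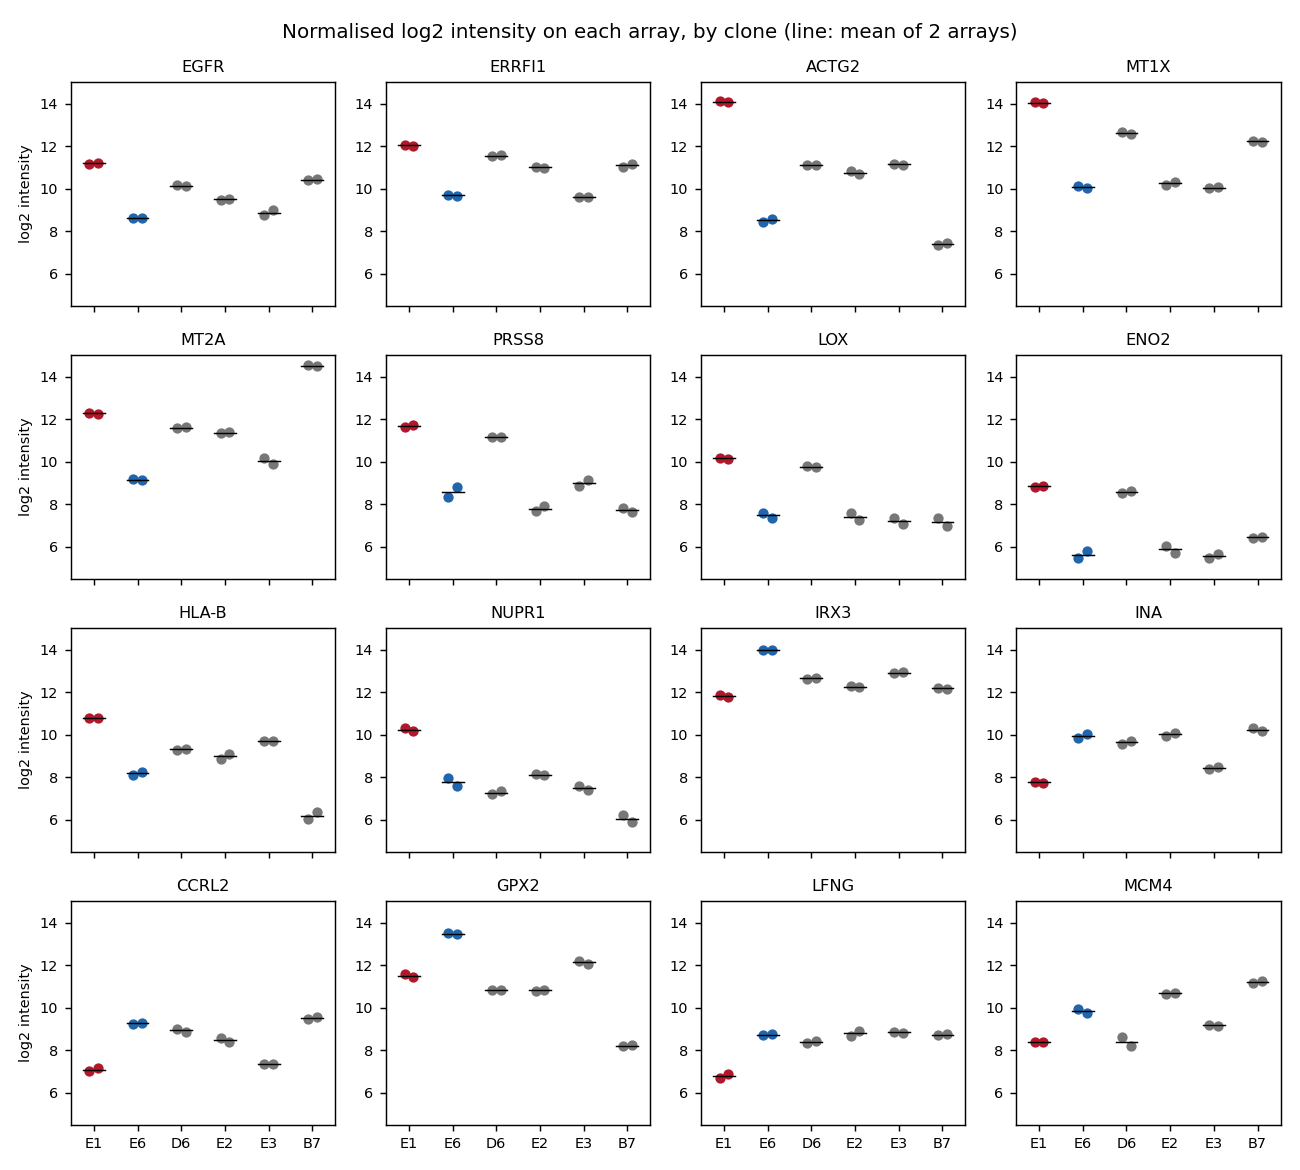
Log2 normalised intensity of 16 genes on each of the 12 arrays, by clone, with E1 in red, E6 in blue, the other clones in grey and the mean of the 2 arrays as a line. ACTG2 lies near 14 in E1 and between 8.4 and 8.6 in E6, and EGFR is shown for its order only.

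Genes around EGFR on chromosome 7 differed far less than EGFR did. Among the 10 tested genes on each side in RefSeq order, 5 were higher in E1 and 2 were lower. Over all genes, 20.6% were higher in E1 and 19.7% lower. The neighbours had a median difference of 0.10 and a range from -0.81 to 0.63. The nearest tested neighbours were POM121L12 at -0.25 and the glutathione-binding protein LANCL2 at -0.77. Over whole chromosomes the median difference ran from -0.11 on chromosome 18 to 0.06 on chromosome 3.

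List counts here and below stand beside 40.3% of all genes called, 20.6% higher in E1 and 19.7% lower. Shares called are printed for lists near or below that level. Of 18 other receptors, adaptors and regulators of the EGFR family that were tested, 8 were higher in E1 and 0 lower (44.4% called). The list median was 0.22. ERRFI1, the feedback inhibitor that binds the EGFR kinase domain, led them with 12.07 and 12.01 in E1, against 9.71 and 9.67 in E6, a difference of 2.35 ± 0.08 (adjusted p = 2.9e-08). Its clone means ran in nearly the EGFR order, with D6 at 11.55, E2 at 10.998 and E3 at 9.61, E3 lying just under E6. The ubiquitin ligase CBLC differed by 0.80, the adaptor SHC1 by 0.74 and the receptor regulator LRIG2 by 0.66. The partner receptors did not pass the test. ERBB2 stood at 10.05 and 10.17 in E1 against 10.11 and 10.03 in E6, and ERBB3 at 10.63 and 10.70 against 10.79 and 10.82. The sign of the ERBB2 difference (0.04) turned under median scaling, with the mean over its probes and without the second array of either clone (-0.02, -0.05, -0.02 and -0.0004).

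Of 9 EGFR ligands and sheddases tested, 3 were higher in E1 and 1 lower (44.4% called), with a median of -0.07. The ligand TGFA differed by 0.58 and NRG4, a ligand of ERBB4, by 0.89. BTC, another EGFR ligand, differed by -0.88. The sheddase ADAM17, which releases several ligands, differed by 0.29, and that call was lost without E1 replicate 1 (0.19), E6 replicate 1 (0.29) or E6 replicate 2 (0.30), and under median scaling (0.24) and in the authors' values (0.35) among other settings. NRG4 lost its call without E1 replicate 1 (0.85) or E6 replicate 2 (0.78).

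Of 13 ERK feedback inhibitors, 7 were higher in E1 and 1 lower, with a median of 0.29. The phosphatase DUSP1 stood at 11.5045 and 11.30 in E1, against 10.65 and 10.40 in E6, a difference of 0.88. SPRED2 differed by 0.81, SPRY1 by 0.77 and the ERK-binding protein PEA15 by 0.69. The 1 lower member, SPRY4, was under the detection limit on all 4 arrays, and the ERK phosphatase DUSP6, at 6.58 and 6.64 in E1 against 6.85 and 6.88 in E6, did not pass the test (adjusted p = 0.061); both were picked for mention after their values were seen. Of 26 output genes of ERK signalling, 9 were higher and 4 lower (50% called), with a median of 0.14. The stress and growth factor induced ATF3 (1.54), IER3 (1.26), EGR1 (1.04) and ETV5 (0.97) were higher in E1. The lower members were FOS (-0.87), CCND1, cyclin D1 (-0.63), FOSB (-0.27) and HMGA1 (-0.24). Between D6 and E3 FOS ran the other way, at 3.29. In D6 against E3, 9 of the 13 feedback inhibitors and 16 of the 26 output genes were higher, and 0 were lower in either list.

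Of 27 other receptor kinases and ligands, 8 were higher in E1 and 3 lower (40.7% called, against 40.3% of all genes). AXL, a receptor often discussed in EGFR inhibitor tolerance, stood at 9.96 and 9.95 in E1, against 8.68 and 9.04 in E6, a difference of 1.10 ± 0.12 (adjusted p = 4.62e-05). The other 4 clones lay at 9.82 to 10.51, so E6 was the clone that stood apart. PDGFB differed by 1.16 and VEGFA by 1.04, and the ephrin receptor EPHA4 by -1.66. MET was at 8.64 and 8.47 in E1 against 8.53 and 8.59 in E6 and did not pass the test.

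Metallothioneins are small proteins that bind zinc, copper and cadmium, and the transcription factor MTF1 turns them on at metal response elements when free zinc rises. Of 6 tested members, 5 were higher in E1 and 0 were lower, with a median of 2.56, or 2.34 with the 2 members undetected in E6 at their bounds. The members resemble one another closely in sequence, so a probe may read more than 1 of them. MT1X stood at 14.06 and 14.04 in E1, against 10.14 and 10.04 in E6, a difference of 3.96 ± 0.08 (SE, n = 2 arrays each, adjusted p = 1.23e-09). MT1F had 11.29 and 11.28 in E1, against 8.25 and 8.05 in E6, a difference of 3.14. MT2A had 12.29 and 12.26 in E1, against 9.18 and 9.12 in E6, a difference of 3.12. For all 3 the clones lay far apart compared with the 2 arrays of a clone. MT1H and MT1G were under the detection limit on both E6 arrays and at least 2.93-fold and 1.78-fold higher in E1, and MT1E, at 6.99 and 6.74 in E1 against 6.63 and 6.48 in E6, did not pass the test. Over the series the members were not ordered alike. MT1X was second highest in D6 (12.61) and B7 stood at 12.23, while MT2A was highest of all in B7 at 14.52. In D6 against E3, 4 of the 6 were higher and 0 lower, with MT1X at 2.55 and MT2A at 1.57.

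The promoters of MT1X and MT2A are shown because they are the members with a promoter entry that were detected on all 4 arrays, and they hold several metal response elements (TGCACNC or TGCGCNC on either strand, overlapping matches joined, in capitals). The sequences are from RefSeq on GRCh38.p14 and run from 250 bases before the gene's start to 50 after it, 5′ to 3′ on the gene's strand. MT1X lies at chr16:56682220-56682519 on the plus strand and holds 4 matches, and MT2A lies at chr16:56608334-56608633 on the plus strand and holds 8.
MT1X: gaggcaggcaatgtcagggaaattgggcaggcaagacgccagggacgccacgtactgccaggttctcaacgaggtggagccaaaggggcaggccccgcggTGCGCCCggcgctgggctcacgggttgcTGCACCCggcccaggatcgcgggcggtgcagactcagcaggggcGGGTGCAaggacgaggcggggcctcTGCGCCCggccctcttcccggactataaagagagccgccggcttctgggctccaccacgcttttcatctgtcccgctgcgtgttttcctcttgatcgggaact
MT2A: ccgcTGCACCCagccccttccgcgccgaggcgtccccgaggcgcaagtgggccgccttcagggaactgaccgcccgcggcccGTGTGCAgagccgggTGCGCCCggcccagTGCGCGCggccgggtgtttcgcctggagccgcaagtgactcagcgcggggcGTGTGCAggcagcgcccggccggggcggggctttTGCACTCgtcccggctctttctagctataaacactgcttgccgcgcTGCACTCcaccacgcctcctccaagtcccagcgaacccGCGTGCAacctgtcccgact

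Promoter entries were found for 3 of the 6 tested metallothioneins, MT1H, MT1X and MT2A, and all 3 hold 3 or more matches. Over 27303 promoters of the same length, 29.3% hold at least 1 match and 1.64% hold 3 or more. MT1H, which was not printed, holds 8. A match is a run of letters and not a measured binding site.

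Genes of the hypoxia response and glycolysis were higher in E1 nearly throughout. The factor HIF1 binds the core ACGTG and turns on glucose transporters, glycolytic enzymes and secreted factors such as VEGFA when oxygen is low. Of 34 tested members, 29 were higher in E1 and 1 was lower, against 20.6% and 19.7% of all genes, with a median of 0.63 and 13 members at least 2-fold higher. ENO2, the neuronal enolase, stood at 8.81 and 8.86 in E1, against 5.47 and 5.79 in E6 where neither array detected it, at least 7.24-fold higher (adjusted p = 1.02e-07). ANKRD37, a small ankyrin protein and HIF1 target, had 9.46 and 9.62 in E1, against 6.93 and 6.72 in E6, a difference of 2.71 ± 0.11 (SE, n = 2 arrays each, adjusted p = 8.91e-08). ADM, the vasodilator adrenomedullin, had 13.88 and 13.73 in E1, against 11.74 and 11.94 in E6. These 3 also differed between D6 and E3, by 2.99, 1.21 and 1.24. CA12, a membrane carbonic anhydrase, had 8.36 and 8.46 in E1, against 6.11 and 6.14 in E6, a difference of 2.28. It differed by -0.07 between D6 and E3, and the other 5 clones averaged 5.30 to 6.13. The further members between 1 and 2 log2 units were SLC2A3, NDRG1, HK2, PFKFB4, ALDOC, P4HA1, P4HA2, EGLN3 and VEGFA. The muscle-type pyruvate kinase PKM was the lower member at -0.27, and PFKL, PDK1, LDHB and BNIP3L did not pass the test. In D6 against E3, 26 of the 34 were higher and 1 was lower, with a median of 0.79.

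The promoters of ANKRD37 and ENO2 are shown for the letters ACGTG on either strand, in capitals, with overlapping matches joined. ANKRD37 lies at chr4:185396591-185396890 on the plus strand with 2 matches, and ENO2 lies at chr12:6914330-6914629 on the plus strand with 1 (RefSeq, GRCh38.p14).
ANKRD37: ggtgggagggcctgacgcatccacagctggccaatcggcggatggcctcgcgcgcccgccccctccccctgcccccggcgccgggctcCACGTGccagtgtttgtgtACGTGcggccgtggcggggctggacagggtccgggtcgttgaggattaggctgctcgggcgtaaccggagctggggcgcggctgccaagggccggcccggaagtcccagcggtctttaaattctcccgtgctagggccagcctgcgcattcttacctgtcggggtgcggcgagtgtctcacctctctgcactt
ENO2: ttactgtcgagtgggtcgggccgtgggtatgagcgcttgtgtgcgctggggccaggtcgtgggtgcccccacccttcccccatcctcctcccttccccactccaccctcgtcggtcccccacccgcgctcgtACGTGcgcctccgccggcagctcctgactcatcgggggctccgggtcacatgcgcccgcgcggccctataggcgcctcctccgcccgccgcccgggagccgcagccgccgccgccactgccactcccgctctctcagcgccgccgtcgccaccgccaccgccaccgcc

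At least 1 match was found in 13 of the 30 members with a promoter entry (43.3%), against 21.6% of all promoters. The 5 letters are short and 1 match is common.

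Genes of DNA replication were lower in E1. The MCM proteins form the helicase that opens DNA at origins, PCNA clamps the polymerases to it, and E2F factors turn these genes on before S phase. Of 36 tested members, 31 were lower in E1 and 0 higher, with a median of -0.79 and 11 members at least 2-fold lower. MCM4 stood at 8.41 and 8.41 in E1, against 9.95 and 9.76 in E6, a difference of -1.45 ± 0.12 (SE, n = 2 arrays each, adjusted p = 8.17e-06). MCM5 differed by -1.39, the flap endonuclease FEN1 by -1.30 and PCNA by -1.26. PCNA had 10.10 and 10.12 in E1, against 11.42 and 11.33 in E6, while its dimmer probe differed by only -0.28. Across the series E1 and D6 held the lowest means of these 4 genes, E3 and E6 lay above them, and E2 and B7 held the highest. Of 38 mitosis genes, 26 were lower in E1 and 0 higher, with a median of -0.40 and 0 at least 2-fold lower. Cyclin A, CCNA2, differed by -0.89, the factor FOXM1 by -0.82, the checkpoint kinase TTK by -0.79 and the spindle checkpoint protein MAD2L1 by -0.77. D6 had 32 replication genes lower than E3 with 1 higher, and 32 mitosis genes were lower with 0 higher.

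The PCNA promoter is shown for the E2F letters TTTCCCGC or TTTGGCGC on either strand, in capitals. It lies at chr20:5126573-5126872 on the minus strand and holds 1 match (RefSeq, GRCh38.p14). FEN1, which differed slightly more, has a promoter entry with 0 matches and is not shown.
PCNA: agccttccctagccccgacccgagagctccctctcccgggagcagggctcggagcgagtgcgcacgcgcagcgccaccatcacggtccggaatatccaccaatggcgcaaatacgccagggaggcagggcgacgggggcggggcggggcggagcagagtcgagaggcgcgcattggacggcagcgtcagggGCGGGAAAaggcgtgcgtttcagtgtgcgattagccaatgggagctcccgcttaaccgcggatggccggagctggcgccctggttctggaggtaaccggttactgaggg

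At least 1 match was found in 16 of 34 replication genes with a promoter entry (47.1%), against 2.31% of all promoters.

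**Figure D3:**
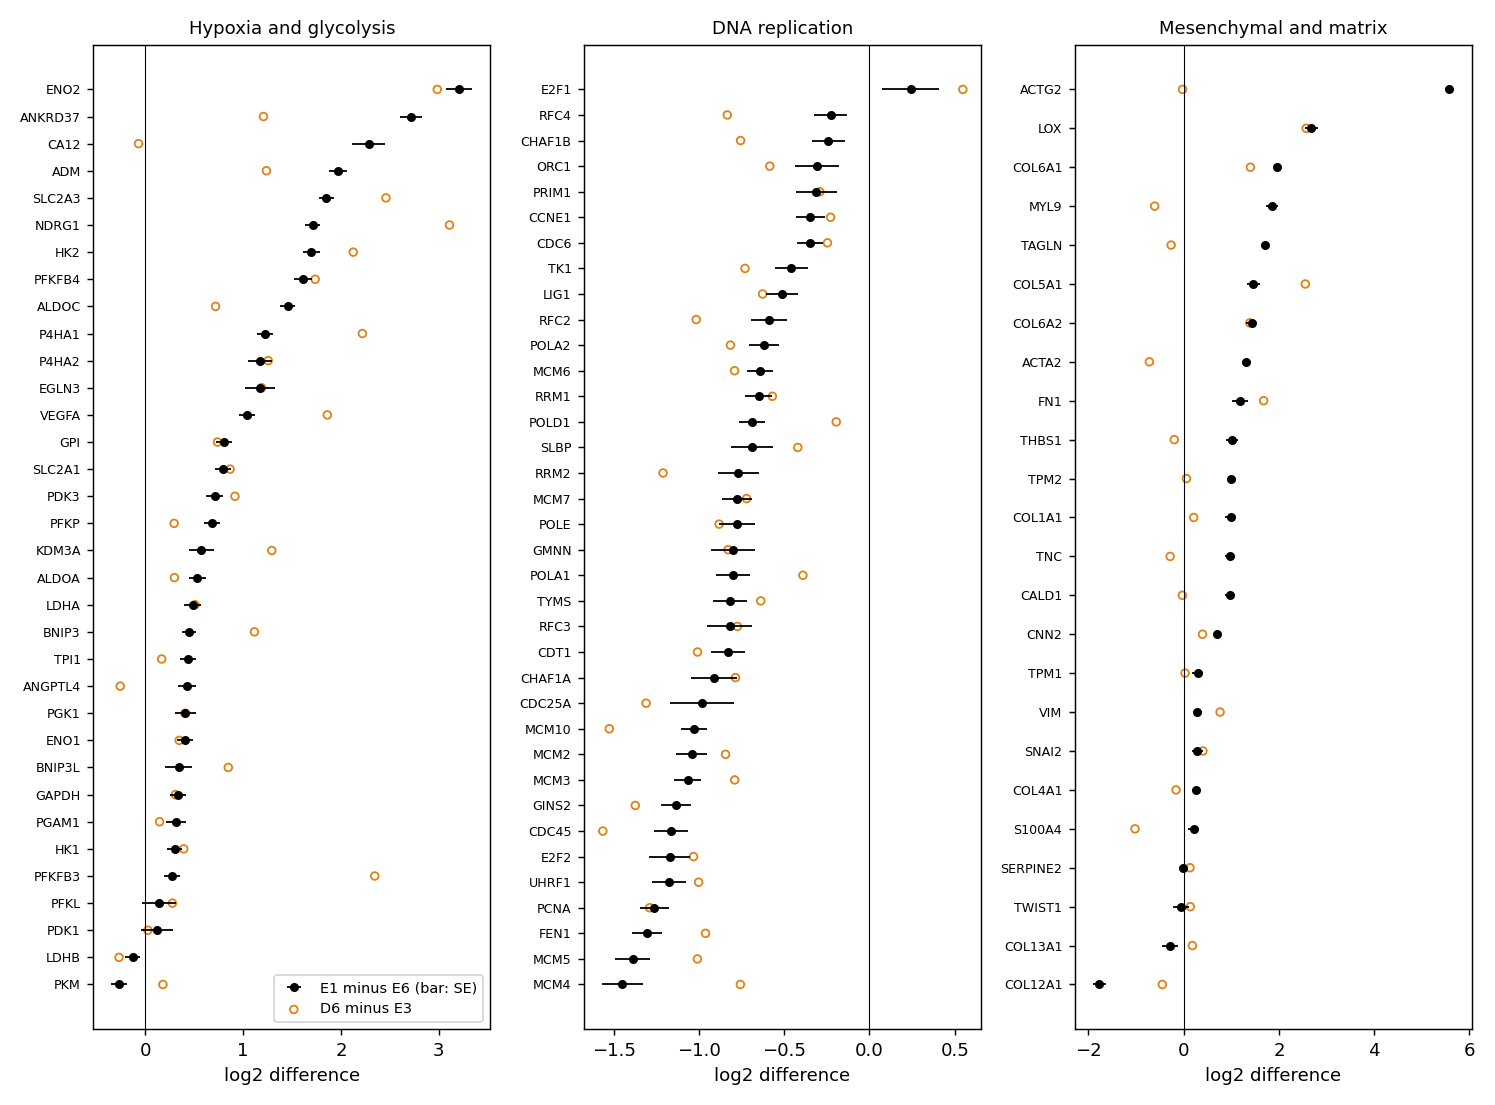
Log2 difference of each tested member of 3 gene lists, with E1 minus E6 as black points with their SE and D6 minus E3 as open orange circles. Hypoxia members lie mostly right of 0 and replication members left of 0 in both pairs, while ACTG2, MYL9 and ACTA2 are right of 0 only for E1 minus E6.

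Of 24 mesenchymal and matrix genes that passed the detection filter, 17 were higher in E1 and 1 lower, with a median of 0.98 and 10 members at least 2-fold higher. The list held 41 genes, so 17 were not tested. Besides ACTG2, the matrix cross-linking enzyme LOX stood at 10.16 and 10.15 in E1, against 7.59 and 7.36 in E6, a difference of 2.68 ± 0.14 (adjusted p = 5.23e-07). The collagen COL6A1 had 10.12 and 10.14 in E1, against 8.14 and 8.22 in E6. The myosin light chain MYL9 was under the limit on both E6 arrays and at least 3.38-fold higher in E1. These genes split between the pairs. LOX and COL6A1 were also higher in D6 than in E3, by 2.57 and 1.40, whereas ACTG2 differed there by -0.03 (adjusted p = 0.853) and MYL9 by -0.61. COL12A1, a collagen of fibril surfaces, was the lower member at -1.77. The intermediate filament VIM had 8.51 and 8.48 in E1, against 8.15 and 8.26 in E6, a difference of 0.29, and its call was lost without E1 replicate 1 (0.27), E1 replicate 2 (0.31) or E6 replicate 1 (0.23), and under median scaling (0.22) and in the authors' values (0.27) among other settings. Of the fibroblast markers given above, COL1A1 had 8.01 and 8.04 in E1, against 6.92 and 7.15 in E6, a difference of 0.99, and COL1A2 and COL3A1 were undetected. The part of the fibroblast marker difference in this list was not tested.

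The ACTG2 promoter is shown because no other gene differed more. Its capitals are CArG boxes, the sites that serum response factor binds in smooth muscle genes, and the window at chr2:73892758-73893057 on the plus strand holds 2 (RefSeq, GRCh38.p14).
ACTG2: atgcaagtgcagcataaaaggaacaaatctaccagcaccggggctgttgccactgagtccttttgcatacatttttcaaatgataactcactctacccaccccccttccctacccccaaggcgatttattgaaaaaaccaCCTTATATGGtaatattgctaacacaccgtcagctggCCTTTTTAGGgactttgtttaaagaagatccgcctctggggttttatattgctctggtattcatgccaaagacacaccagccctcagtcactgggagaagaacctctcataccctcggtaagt

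CArG boxes were found in 2 of 18 members with a promoter entry and in 1.29% of all promoters.

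Of 12 genes listed as integrins, 1 of them the integrin-binding protein ITGB1BP1 (0.42), 9 were higher in E1 and 0 lower, with a median of 0.47. ITGA5, the fibronectin receptor subunit, had 10.18 and 10.14 in E1, against 8.24 and 8.42 in E6, a difference of 1.83. ITGB3 differed by 1.20, ITGB5 by 0.65 and ITGB4 by 0.61. Of 20 YAP and TEAD targets, 8 were higher and 2 lower (50% called). CCN1, a matricellular protein, had 10.997 and 10.75 in E1, against 8.11 and 8.31 in E6, a difference of 2.66, and E6 was the lowest of the 6 clones. Tissue factor, F3, differed by 1.62, and CCN2 by 1.28 with no call in the authors' processed values (0.22). Of 14 matrix proteases and plasminogen genes, 6 were higher and 1 lower (50% called). MMP7 had 10.39 and 10.39 in E1, against 7.88 and 7.84 in E6. The urokinase PLAU differed by 0.84, and the tissue activator PLAT by 0.45, a call lost without E1 replicate 1 (0.42) or E6 replicate 2 (0.41). MMP9 was counted among the higher members but lay under the detection limit on all 4 arrays.

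Class I molecules show peptides to T cells, and TAP1 pumps the peptides into the endoplasmic reticulum. Of 19 class I genes, 10 were higher in E1 and 2 lower, with a median of 0.46. HLA-B stood at 10.78 and 10.79 in E1, against 8.13 and 8.27 in E6, a difference of 2.58 ± 0.12 (SE, n = 2 arrays each, adjusted p = 2.19e-07). HLA-F differed by 1.68, TAP1 by 1.51 and HLA-G by 1.25. HLA genes are near-identical in long stretches and differ between people, so a probe may cross-read another member. E1 was the highest clone for these 4 genes, and between D6 and E3 3 of the 19 were higher in D6 and 5 lower. The 2 lower members were TAPBPL and PSMB10. Of 4 class II genes, 3 were higher in E1 and 0 lower. The invariant chain CD74 had 7.72 and 7.54 in E1, against 6.15 and 6.16 in E6, and HLA-DMA differed by 1.29. HLA-DMB was detected on neither E6 array, and its call was lost without E1 replicate 1 (0.67) or E6 replicate 1 (0.81).

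Of 32 interferon response genes, 16 were higher in E1 and 2 lower, with a median of 0.25, and 6 were at least 2-fold higher. The membrane protein IFITM1, which blocks virus entry, had 7.86 and 8.04 in E1, against 6.17 and 5.98 in E6. The tetherin BST2 differed by 1.88, the exonuclease ISG20 by 1.82 and IFI6 by 1.14. Well known interferon-induced members that were not called were IFIT1 at 6.205 and 6.11 in E1 against 6.28 and 5.92 in E6, ISG15 at 9.74 and 9.62 against 9.66 and 9.42, and MX1 at 8.002 and 7.92 against 7.75 and 7.76; these 3 were picked after their values were seen. In D6 against E3, 18 of the 32 were higher and 0 lower. Of 41 cytokines and acute phase genes, 14 were higher in E1 and 8 lower. IL32 differed by 1.69, IL1B by 1.59 and lymphotoxin beta, LTB, by 1.44, while the neutrophil chemokine CXCL1 differed by -1.51.

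Genes of the integrated stress response, which cells use when amino acids or protein folding fail, were higher in E1 more often than lower. Of 31 tested, 16 were higher in E1 and 3 lower, with a median of 0.40. NUPR1, a stress-induced nuclear protein, had 10.31 and 10.19 in E1, against 7.99 and 7.61 in E6, a difference of 2.45 ± 0.14 (adjusted p = 8.35e-07), and 2.15 at its second probe. DDIT4, an inhibitor of the growth kinase mTOR complex, had 14.20 and 14.07 in E1, against 12.36 and 12.29 in E6. DDIT3, the factor CHOP, differed by 1.80 and the asparagine synthetase ASNS by 1.43. The lower members were ATF5, SLC7A11 and GDF15. Of 28 heat shock and endoplasmic reticulum chaperones, 13 were higher and 6 lower. The mannosidase-like EDEM1 differed by 1.12, DNAJB9 by 0.91 and the folding chaperone HSPA5 by 0.90, and the small heat shock protein CRYAB was undetected in E6 and at least 1.48-fold higher. The 6 lower members were HSPA1B (-0.64), HSPH1 (-0.62), HSPA1A (-0.55), XBP1 (-0.49), DNAJA1 (-0.37) and HSPA8 (-0.34), most of them cytosolic heat shock chaperones. HSPA1A and HSPA1B are near-identical, so their probes may read both.

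Genes of NRF2, the factor that answers oxidants, ran the other way. Of 39 tested, 19 were lower in E1 and 7 higher, with a median of -0.26. The glutathione peroxidase GPX2 had 11.60 and 11.43 in E1, against 13.50 and 13.46 in E6, a difference of -1.96 ± 0.08 (adjusted p = 1.23e-07). The catalytic subunit of glutathione synthesis GCLC differed by -1.07 and the epoxide hydrolase EPHX1 by -0.90. The glutathione transferase GSTA4 was higher in E1 by 1.55. The list was even in D6 against E3, with 9 higher and 11 lower, although GPX2 differed there by -1.31 and GCLC by -0.65. Of 26 cholesterol and fatty acid synthesis genes, 8 were higher and 5 lower (50% called). The sterol oxidase MSMO1 differed by 1.29, the sterol sensor partner INSIG1 by 1.25 and TMEM97 by -0.84. IDI1 differed by 0.72, a call lost without E1 replicate 1 (0.66) or E6 replicate 1 (0.61).

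Of 20 p53 targets and cell cycle inhibitors, 10 were higher and 4 lower. GADD45A differed by 1.28, DDB2 by 0.93 and GADD45B by 0.69, and TP53I3 by -1.37. Of 17 BCL2 family genes, 6 were higher and 2 lower (47.1% called). The death-promoting PMAIP1 differed by 0.65 and BNIP3 by 0.45, and BAX by -0.65 and BID by -0.45, both of which lost the call with the mean over their probes (-0.20 and -0.19). BCL2L11, the BH3-only protein BIM, stood at 7.10 and 7.04 in E1 against 6.97 and 6.91 in E6 and did not pass the test; the sign of its difference of 0.13 turned with the mean over its probes (-0.05).

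Of 35 epithelial junction and simple keratin genes, 13 were higher in E1 and 7 lower, with a median of 0.09. The placental cadherin CDH3 had 11.82 and 11.83 in E1, against 10.37 and 10.27 in E6, a difference of 1.51. The laminin LAMB3 differed by 0.98, the plakophilin PKP2 by 0.76 and the cadherin CDH1 by 0.32. Of 19 squamous genes, 5 were higher and 4 lower (47.4% called). The keratins KRT15 and KRT13 differed by 1.47 and 1.28, and the cornified envelope protein SPRR3 by -1.93 and the serpin SERPINB5 by -1.32. Between D6 and E3, KRT13 differed by 4.24 and KRT15 by 2.75. Of 15 surface mucin and defence genes, 6 were higher and 2 lower, with the adhesion molecule CEACAM1 undetected in E6 and at least 1.9-fold higher, the defensin DEFB1 at 1.09, AGR2 at -0.94 and BPIFB1 undetected in E1 and at least 1.6-fold lower. Of 20 S100 proteins and annexins, 2 were higher and 5 lower (35% called, below the 40.3% of all genes). ANXA2 differed by 0.57, ANXA4 by -0.70 and S100A9 by -0.49. S100A16 differed by -0.39, and its call was lost without E1 replicate 2 (-0.32) or E6 replicate 1 (-0.31). Of 11 lung and airway lineage genes, 2 were higher and 4 lower. The pioneer factor FOXA1 differed by -0.83, KLF5 by -0.96 and SOX9 by 0.75, and SOX2 was undetected in E1 and at least 1.37-fold lower, with no call when dim probes were kept (-0.59).

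Among signalling lists, 8 of 14 Notch genes were higher in E1 and 2 lower. The ligand JAG1 differed by 1.10 and the target HEY1 by 1.14, HES2 was undetected in E6 and at least 3.05-fold higher, and LFNG, the glycosyltransferase that tunes Notch receptors, had 6.69 and 6.87 in E1, against 8.71 and 8.76 in E6. The other 4 clones averaged 8.41 to 8.85 for LFNG. Of 13 genes of the IGF system, 8 were higher and 1 lower. IGFBP5, a secreted IGF carrier, had 11.56 and 11.51 in E1, against 9.51 and 9.39 in E6, and the hormone STC1 differed by 1.74. IGF2BP2 differed by 0.56, and IGFBP4 was undetected in E6 and at least 1.07-fold higher. Of 23 WNT genes, 6 were higher and 5 lower (47.8% called). The WNT carrier WLS differed by 1.63, WNT7A by 1.05 and the antagonist DKK1 by -1.29. Of 20 TGF-beta, BMP and ID genes, 4 were higher and 7 lower, with the matrix protein TGFBI at 1.47, the inhibitory SMAD6 at -1.23 and ID1 at -1.18, and ID2 undetected in E1 and at least 1.57-fold lower. Of 17 retinoid response genes, 6 were higher and 5 lower, with RARRES1 at -1.10, the retinoic acid hydroxylases CYP26B1 at -0.82 and CYP26A1 at 0.54, the last with no call with the mean over its probes (0.26). ALDH1A1 was undetected in E1 and at least 1.46-fold lower, and lost its call without E1 replicate 2 (-0.59), E6 replicate 1 (-0.72) or E6 replicate 2 (-0.81).

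Of 29 lysosomal genes, 13 were higher and 5 lower, with the cathepsins CTSL at 0.98 and CTSB at 0.69, the sialidase NEU1 at 0.69, and GAA at 0.74, a call lost without any 1 of the 4 arrays (0.69 to 0.79). In 2 housekeeping lists the share of calls was below the 40.3% of all genes. Of 46 cytosolic ribosomal proteins 1 was higher and 9 lower (21.7% called), with RPL29 at -0.67, RPL13 at -0.49, RPL34 at -0.42 and RPL37 at 0.70, the last with no call with the mean over its probes (0.07). Of 40 respiratory chain subunits 0 were higher and 8 lower (20% called). Between D6 and E3, 25 of the 40 were lower in D6 and 1 higher, beside 18.1% and 16.5% of all genes. In E1 against E6, NDUFB8 differed by -0.60 and NDUFB9 by -0.55. COX7B differed by -0.32 and lost its call without E1 replicate 1 (-0.24) or E6 replicate 1 (-0.22), and NDUFS1 by -0.32 without E1 replicate 2 (-0.21) or E6 replicate 1 (-0.28).

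**Figure D4:**
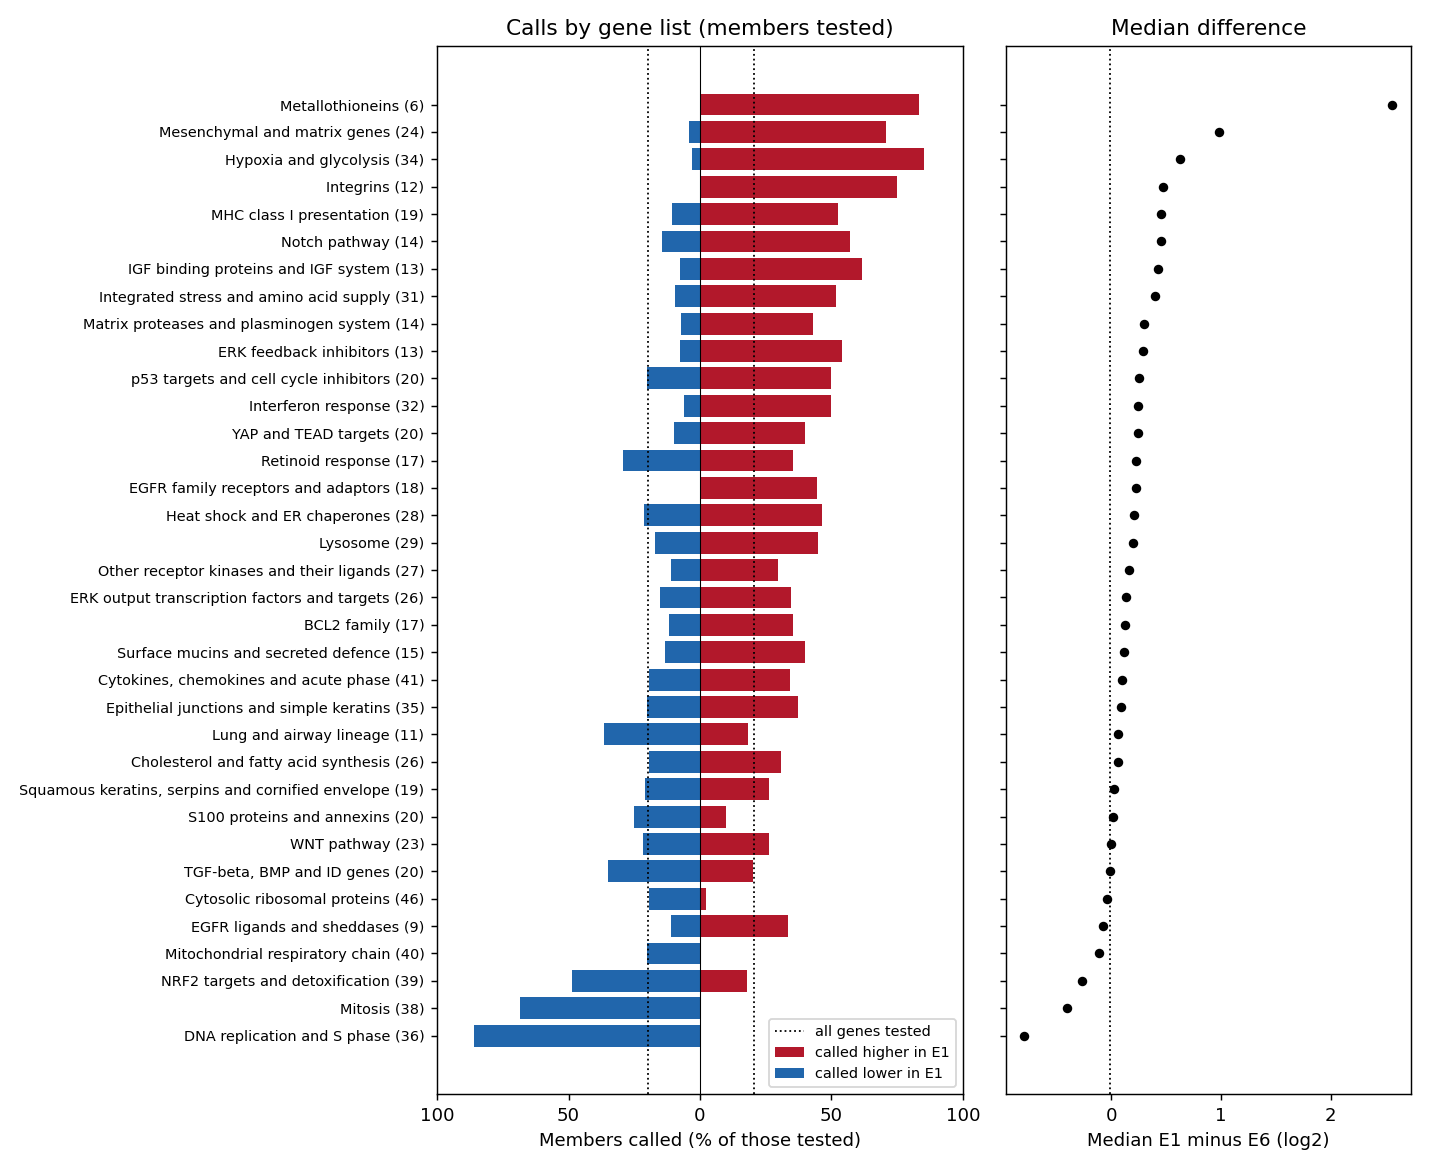
For each gene list with at least 6 tested members, the share of them called higher (red, right) and lower (blue, left) in E1 and the median difference, with dotted lines for all genes tested. Metallothioneins (median 2.56), mesenchymal and matrix genes (0.98) and hypoxia genes (0.63) lie at the top, and DNA replication (-0.79) at the bottom.

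D6 and E3 are the tolerant clones next to E1 and E6 in the EGFR order, and their arrays played no part in the differences above, although all arrays share the normalisation and the estimate of spread. Over all genes D6 was also the tolerant clone nearest to E1 (root mean square difference 0.392), and E3 the nearest to E6 (0.390). The part of that likeness in the overlap of the 2 pairs was not tested. Between D6 and E3, 2027 genes were higher in D6 (16.5%) and 2214 lower (18.1%). Of the 2522 genes higher in E1, 909 were also higher in D6 (36%) and 294 were lower (11.7%). Of the 2409 lower in E1, 854 were also lower in D6 (35.5%) and 252 were higher (10.5%). Among the 350 genes at least 2-fold higher in E1 the shares were 55.7% higher in D6 and 9.43% lower, and among the 186 at least 2-fold lower they were 39.8% lower in D6 and 17.2% higher. In all, 7.42% of the genes were higher in both pairs, 6.97% were lower in both and 4.46% were called in opposite directions. The difference between the 2 pairs was not tested.

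**Figure D5:**
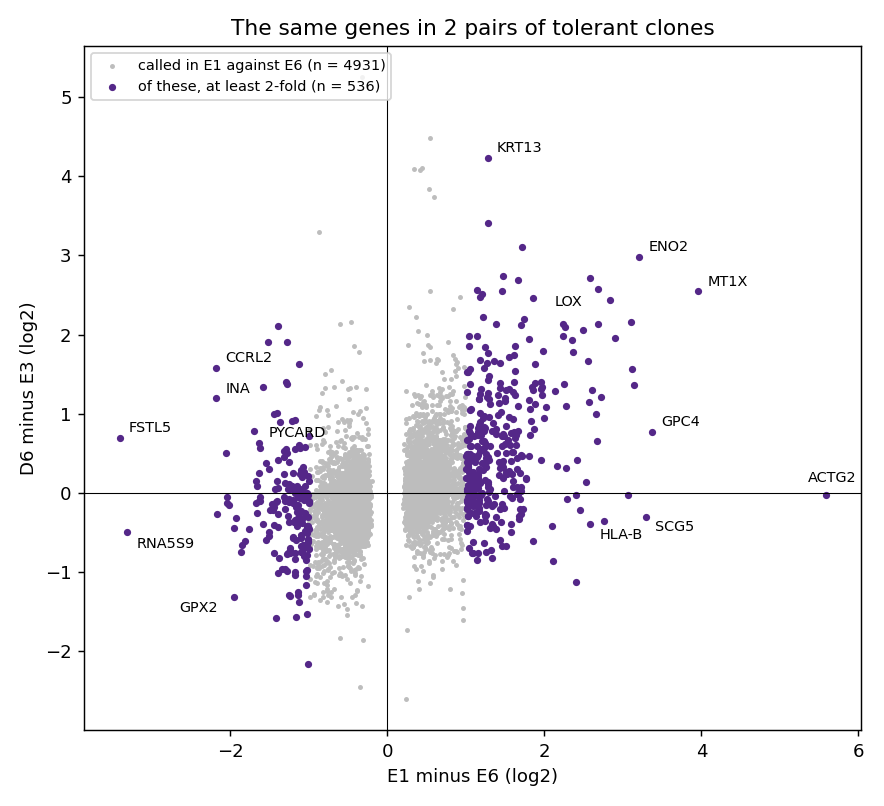
Log2 difference D6 minus E3 (vertical) against E1 minus E6 (horizontal) for the 4931 genes called in E1 against E6, with the 536 at least 2-fold ones in purple. MT1X, ENO2 and LOX are above 0 in both pairs, ACTG2 lies at -0.03 on the vertical axis, and CCRL2 and INA are below 0 in the first pair and above 0 in the other.

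Few genes followed EGFR through all 5 tolerant clones. E1 was the highest and E6 the lowest of the 5 for 486 of the 2522 genes higher in E1 (19.3%), and 93 of them (3.69%) had clone means in the full EGFR order of E1, D6, E2, E3 and E6. The order itself places D6 above E3 in all 93, and 44 of them passed the call in D6 against E3. Those with the largest differences were MT2A (3.12), the noncoding LINC00887 (2.41), HCP5 of the HLA region (2.16), the synaptotagmin SYT7 (2.13), the growth factor ARTN (1.96), ISG20 (1.82), CNTNAP1 (undetected in E6, at least 2.42-fold) and the ligand BMP6 (1.70). SYT7 stood at 9.47 and 9.58 in E1, with means of 8.73 in D6, 8.27 in E2 and 7.43 in E3. Its E6 arrays stood at 7.35 and 7.44, on both sides of the E3 mean. E3 and E6 did not differ beyond the spread of their arrays for SYT7. The reverse order held for 67 of the 2409 genes lower in E1 (2.78%). It places D6 below E3 in all 67, and 19 of them passed the call in D6 against E3. They were led by the homeobox gene HOXC4 (-1.19) and the decarboxylase ECHDC1 (-1.15), then SLC18B1 (-0.91), CAPN8 (undetected in E1), SYNRG (undetected in E1, with no call in the authors' processed values), SLC38A9 (-0.79), CFAP276 (-0.78) and RMND5B (-0.77). Among all genes, called or not, E1 was the highest and E6 the lowest of the 5 for 4.82%. The full order was met by 0.906% of all genes and its reverse by 0.743%. A call already fixes which of E1 and E6 is higher, and by itself this raises the shares among called genes. The shares are therefore descriptions.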

How the data were processed

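RNA of 6 PC9 clones was read on 12 Illumina bead arrays, 2 per clone. Biotin-labelled cRNA was made with a MessageAmp kit, per the labels. The deposited non-normalized table holds linear intensity with background already subtracted, since values below 0 occur, and its 12 detection p-value columns, per the file headers, are empty (0 cells filled). The authors' processed intensity has a floor of 20. Their scanner software, normalization and background method are not given in the sources used here.

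The scanner intensity was corrected by normexp (offset 16), put on the log2 scale and quantile normalized with limma 3.58.1 in R 4.3.3. A probe counted as detected above 2.33 times the array's noise, taken as the root mean square over values below 0 (1-sided p of 0.01). Of 47229 probes, 21912 were detected on both arrays of at least 1 clone. Probes were named by the platform annotation (30112 with 1 gene, 8 with several, 17109 with none), and symbols were updated by Entrez number. Each gene took its brightest kept probe over the 12 arrays, 12250 genes in all. One limma fit (lmFit, eBayes) of 12 arrays in 6 clone groups, with 6 residual degrees of freedom, gave E1 minus E6 and D6 minus E3, 2-sided, with Benjamini-Hochberg adjustment. EGFR was fitted, and its p is not reported. A fold for a gene undetected in 1 clone is a lower bound, with each dim array at the higher of its value and the lowest detected signal. The number of arrays limits the precision.

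The clones, the 41 gene lists and the marker lists were chosen with earlier results of these data known, so list counts are descriptions. The text names the 12 highest and 12 lowest called genes detected on all 4 arrays, the 6 largest bounds each way, up to 4 called members per list, the 8 largest each way in the EGFR order (or its reverse) called in both pairs, and EGFR, ERBB2, ERBB3, MET, AXL, VIM, CDH1 and BCL2L11. Genes outside this rule were named after their values were seen.

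On simulated data for E1 against E6 (12250 genes) the test recovered 52, 87 and 100% of genes changed by 0.5, 1 and 2 log2 units, and 5.91% of its calls were unchanged genes. The simulation changed only a small share of the genes, held the rest equal in all clones and used independent normal noise. In the data 40.3% of genes were called, so these rates do not carry over to it. Promoter motifs were counted with Python 3.11.15 and pandas 2.3.3. Alternatives covered the background correction, offset, scaling, deposited values, filter, probe summary, variance model, fold threshold, arrays in the fit, replicate block and leaving out each array. Probes without 1 gene were left out.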

Additional observations from a re-analysis of the deposited data

How the results depend on the processing

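Calls of E1 against E6 numbered 2522 higher and 2409 lower. A fold threshold of 2 by its construction left 350 and 186, and leaving out 1 array gave 1918 to 2071 higher and 1850 to 1908 lower. The remaining settings ran from 1970 to 2719 higher and 1834 to 2654 lower. Genes called the same way in both pairs numbered 1763, with 112 at the fold threshold, 1415 to 1544 without 1 array, and otherwise 1158 with no filter on dim probes, 1288 in the authors' values and up to 2082 with an intensity trend. Median scaling lowered the median difference of all genes to -0.04 and the share of higher calls to 44.1%, against 51.1%. The replicate numbers did not pair the arrays: differences between replicate 1 and 2 correlated at 0.03 between E1 and E6, and over all clone pairs at -0.02 to 0.05. The fit with a replicate block gave 2484 higher, 2381 lower and 1721 the same way in both pairs, and lost no call among 184 named genes. The EGFR difference was 1.20 with the mean over its probes, 2.46 with an offset of 50 and 2.48 with median scaling. Signs turned only for uncalled genes: BCL2L11 with the mean over probes (-0.049), ERBB2 under median scaling (-0.0196) and with the mean over probes (-0.0533), and MET in the authors' values (0.0717). Without 1 array ERBB2 ran from -0.0222 to 0.1045 and MET from -0.0962 to 0.0732, with turned signs without E1 replicate 2 and without E6 replicate 2 (-0.0004 for ERBB2, 0.0171 for MET). Apart from the fold threshold, which left 113 of 184 named genes on the same side, each setting moved at most 9 of them across the threshold. Of 1880 other probes of called genes, 84.9% had the sign of the probe used. The cause of these changes was not tested. Signal near background limits the dim genes, 386 of which were undetected on all 4 arrays of the pair.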

Other observations

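Probes for structural RNAs were lower in E1 more often than higher. Of 138 small nucleolar RNAs tested, 48 were lower in E1 and 5 higher, with a median of -0.23, and of 13 small nuclear RNAs 11 were lower and 1 higher, with a median of -0.83. All 3 ribosomal RNA genes were lower in E1, led by RNA5S9 at -3.31. SNORD3A, the U3 RNA of ribosome processing, stood at 10.72 and 10.72 in E1, against 12.45 and 12.22 in E6, RPPH1, the RNA of ribonuclease P, at 6.92 and 6.85 against 8.58 and 8.45, and RN7SK, which restrains transcription elongation, at 8.35 and 8.34 against 9.59 and 9.54. By contrast, 259 long noncoding RNAs split into 37 higher and 35 lower. The probes of SNORD3A, SNORD3C and SNORD3D may read near-identical copies. These RNAs were picked after their values were seen.

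Some stretches of neighbouring genes moved one way. They were found after seeing the data, as windows of 25 tested genes in RefSeq order with a median of at least 0.4 in size, and carry no test. A stretch of more than 25 genes spans several windows, and its median can fall under 0.4. Their counts stand beside 20.6% of all genes higher in E1 and 19.7% lower. On chromosome 10, 59 genes from ABCC2 to ADD3 had a median of -0.45, with 34 lower in E1 and 6 higher, and a median of 0.03 for D6 minus E3. Against B7 the same genes had a median of -0.34 in E1 and 0.05 in E6. On chromosome 1, 41 genes from USP33 to LRRC8C had a median of 0.38, with 24 higher in E1 and 0 lower. On chromosome 7, 25 genes from GPNMB to MTURN had a median of 0.43, and against B7 a median of 0.22 in E1 and -0.37 in E6. Further stretches were EHBP1 to C2orf42 on chromosome 2 (median 0.40) and PDCD6 to MYO10 on chromosome 5 (-0.26). Chromosome 3 held GHRLOS to CCDC174 (0.39) and RNF7 to SHOX2 (0.31).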
